A study of Mus musculus with 12 samples.

Results

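Potassium channel genes were taken as all gene symbols of the tables made of Kcn, further letters and closing digits. There were 86 such symbols, and 85 of the 23513 genes of the tables were counted as members. They comprise 70 pore-forming and 15 auxiliary subunits in 15 subfamilies. The pore-forming genes were 6 Kv1, 2 Kv2, 4 Kv3, 3 Kv4 and 5 Kv7 genes, 8 genes of the EAG, ERG and ELK channels, 9 silent Kv subunits, 5 calcium-activated channels, 3 sodium-activated and Slo3 channels, 14 inward rectifiers (Kir) and 11 two-pore channels (K2P). The auxiliary genes were 3 Kv beta, 4 KChIP, 4 KCNE and 4 BK beta subunits. All 85 were found in the annotation of the mouse genome (GENCODE M21, GRCm38). Their gene spans ran from 1.90 kb for Kcna3 to 1135 kb for Kcnip4, and 43 of them lay in the longest tertile of all genes.

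The study asked how prenatal alcohol exposure (PAE) alters the cell types of the developing mouse cortex, measured by single nucleus RNA sequencing. Pregnant C57BL/6J dams were injected with saline or with ethanol (EtOH, 2.5 g/kg) daily for 6 days from E8 to E13, and cortical nuclei of single embryos were prepared at embryonic day 14. The saline group held 5 embryos of dams S1 and S2, and the EtOH group held 6 embryos of dams E1 and E2. Dams S1 and E1 formed batch 1, and dams S2 and E2 formed batch 2. There were 2 dams per treatment, so embryos share a mother and p-values over embryos measure the spread between littermates and litters together. The main test took embryos as independent, so its p-values may be too small where litters differ. Levels are given as CPM, the UMIs of a gene scaled to 1e6 UMIs of an embryo, summed over the nuclei of a cluster or of a major cell type. The major cell types were radial glial cells (RGC, 5 clusters), intermediate progenitor cells (IPC, 2 clusters), projection neurons (PN, 8 clusters) and interneurons (Int, 7 clusters). Clusters 11, 14 and 19 (striatal inhibitory neurons, layer I Cajal-Retzius cells and neurons of unknown type) stood outside them. The 6 RGC markers used below were Hes1, Hes5, Ednrb, Nes, Sox2 and Pax6. Over the 11 embryos they summed to 484 to 661 CPM in RGC, 173 to 254 in IPC, 114 to 155 in Int and 19.1 to 45.5 in PN. The authors named the clusters by marker genes in these nuclei, Hes1 among them, so these sums describe the labels and do not check them.

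In total 50550 nuclei were used, 30349 from saline and 20201 from EtOH embryos. The saline embryos had 44017566 to 83061737 UMIs and the EtOH embryos 14078316 to 38034349, so depth moved with treatment. At most 1.57% of an embryo's barcodes were found in another library. One library stood apart from its group. On the first principal component of all genes, which held 57.9% of the variance in PN, the library labelled saline S2-4 lay at 11.2, within the range of the 6 EtOH embryos (7.96 to 12.8), while the other 4 saline embryos lay at -12.2 or lower. The same held in RGC, IPC and Int. The median UMIs per nucleus were 6325 in S2-4, 8365 to 9051 in the other saline embryos and 4071 to 6911 in the EtOH embryos. Malat1, a nuclear long non-coding RNA, took 1.6% of the UMIs of S2-4, 1.22 to 1.39% in the other saline embryos and 1.51 to 1.74% in the EtOH embryos. Genes in the longest tertile of gene span took 80.5% of the UMIs of S2-4, 81.4 to 83.7% in the other saline embryos and 80.7 to 81.5% in the EtOH embryos. The calls below are therefore given with all 11 embryos and again without S2-4. S2-4 was picked by its place among the EtOH embryos in these same data, so leaving it out tends to widen the group contrast. Over all genes, calls in the clusters rose from 961 higher and 760 lower to 13401 and 5658 without S2-4. Calls and p-values without S2-4 are therefore no independent support. The reason for the position of S2-4 was not tested.

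**Figure D1:**
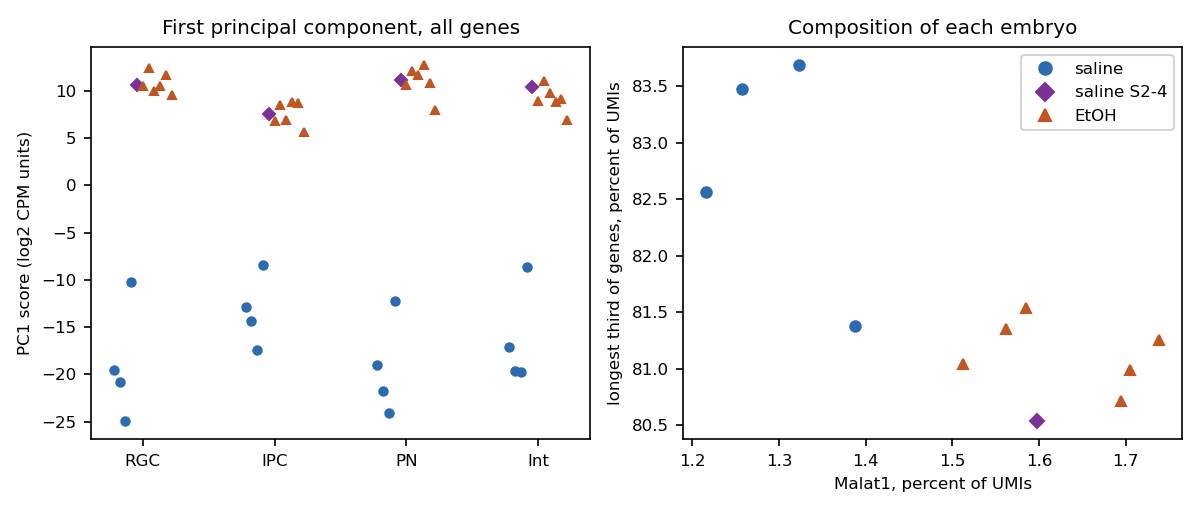
Left, the score of each embryo on the first principal component of log2 CPM over all genes with at least 50 UMIs in every embryo, computed separately in RGC, IPC, PN and Int; right, the percent of UMIs from the longest tertile of genes against the percent from Malat1. Circles are saline embryos, triangles EtOH embryos and the diamond saline S2-4, which lies at 11.2 in PN beside the EtOH embryos (7.96 to 12.8).

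Potassium channels let potassium leave or enter the cell and thereby set the resting potential, end the action potential and limit firing. Voltage-gated Kv channels open on depolarization, calcium- and sodium-activated channels respond to those ions, Kir channels hold the resting potential and include the G-protein-gated channels, and K2P channels carry leak current. Auxiliary subunits change the surface level and gating of their partners. In the embryonic cortex these genes are known from progenitors, whose membrane potential is hyperpolarized, and from young neurons as they become excitable. Kcnma1, the BK channel, and the G-protein-gated Kir subunits are known targets of ethanol in adult neurons.

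The promoters of 5 members whose levels are compared between treatments below are shown as examples of their regulatory sequence. RefSeq windows of 250 bases before to 50 after an annotated start were at hand for 61 of the 85 members (86 windows). Each line gives the 150 bases just before the start, 5′ to 3′ on the gene's strand, GRCm38.p6. Capitals mark matches on either strand to a motif. The TATA box was searched as TATAAA. The GC box of Sp1-type factors was searched as GGGCGG. An E-box was searched as CAGCTG, and no motif contains another.
Kcnj3 (chr2:55435820-55435969, plus strand): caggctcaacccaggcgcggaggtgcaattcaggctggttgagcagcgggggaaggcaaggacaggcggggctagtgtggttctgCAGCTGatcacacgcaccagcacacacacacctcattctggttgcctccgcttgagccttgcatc
Kcnd2 (chr6:21215196-21215345, plus strand): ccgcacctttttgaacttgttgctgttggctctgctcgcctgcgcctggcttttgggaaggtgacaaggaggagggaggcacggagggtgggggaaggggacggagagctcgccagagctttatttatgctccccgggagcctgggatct
Kcnt2 (chr1:140245568-140245717, plus strand): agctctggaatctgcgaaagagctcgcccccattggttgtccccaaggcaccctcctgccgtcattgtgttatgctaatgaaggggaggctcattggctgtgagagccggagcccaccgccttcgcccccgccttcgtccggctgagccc
Kcnh8 (chr17:52602559-52602708, plus strand): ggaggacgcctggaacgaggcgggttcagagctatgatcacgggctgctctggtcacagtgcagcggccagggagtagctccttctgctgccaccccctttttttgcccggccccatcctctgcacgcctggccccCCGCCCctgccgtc
Kcnj13 (chr1:87394730-87394879, minus strand): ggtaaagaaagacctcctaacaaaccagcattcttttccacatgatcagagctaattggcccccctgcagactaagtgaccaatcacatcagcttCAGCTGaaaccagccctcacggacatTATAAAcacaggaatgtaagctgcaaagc
Kcnj13 alone among these 5 held a TATAAA in the stretch shown, Kcnj3 and Kcnj13 held CAGCTG, Kcnh8 held a GC box, and no match stood in the stretches of Kcnd2 and Kcnt2. Over the whole windows, GGGCGG was found in 50% of the members' 86 windows and 35.7% of all 32851 windows, CAGCTG in 24.4% and 16.3%, and TATAAA in 5.81% and 13.6%. A match is a run of letters and was not tested as a binding site.

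A few members held most of the family's UMIs. Kcnh7, an ERG channel, gave 16.3% of them, Kcnd2, the A-type Kv4 channel of dendrites, 13.6%, Kcnq3, a subunit of the M-current, 13.4%, and Kcnb2, a delayed rectifier, 11%. These are shares of UMIs, and since nuclear UMIs fall largely in introns, long genes take more of them. Per kb of gene span the mean over the 25 clusters was 3.08 CPM per kb for Kcnq3, 2.84 for Kcnh7, 2.38 for Kcnd2, 2.26 for Kcnb2 and 2.17 for Kcnk10. The same 4 members therefore led per kb, and Kcnk10, a TREK leak channel, was also above 2 CPM per kb. In their highest cluster 26 members reached at least 100 CPM, 30 lay between 10 and 100 CPM, and 29 stayed under 10 CPM. Of these last, 9 stayed under 1 CPM in every cluster (Kcne1, Kcne3, Kcne4, Kcnj8, Kcnj15, Kcnj16, Kcnk18, Kcnmb1 and Kcns1).

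The summed level of the family was about doubled in PN against RGC and lay between them in Int. All 85 members together reached 5357 ± 352 CPM in RGC, 6017 ± 412 in IPC, 8644 ± 461 in Int and 10940 ± 318 in PN (mean ± SD, n = 11 embryos). PN exceeded RGC in each embryo, by 2.05 ± 0.10 times on average, and Int by 1.27 ± 0.0596 times. Among clusters, the lowest sum was 3763 ± 468 CPM in Cluster 21 (cortical hem RGC, n = 10) and the highest 19168 ± 3678 CPM in Cluster 25 (PN 3, n = 7), a cluster of 124 nuclei. All means of Cluster 25 are over these 7 embryos. Of the 85 members, 38 were higher in PN than in RGC in 11 of 11 embryos and 8 were lower (among them Kcnip3, Kcnj10, Kcnj13, Kcnj14, Kcnk5, Kcnk10 and Kcnk13). Against Int, 19 members were higher in PN in all embryos and 15 lower. The clusters were built from all genes, these among them, so the levels by cluster are a description and no test was run on them.

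**Figure D2:**
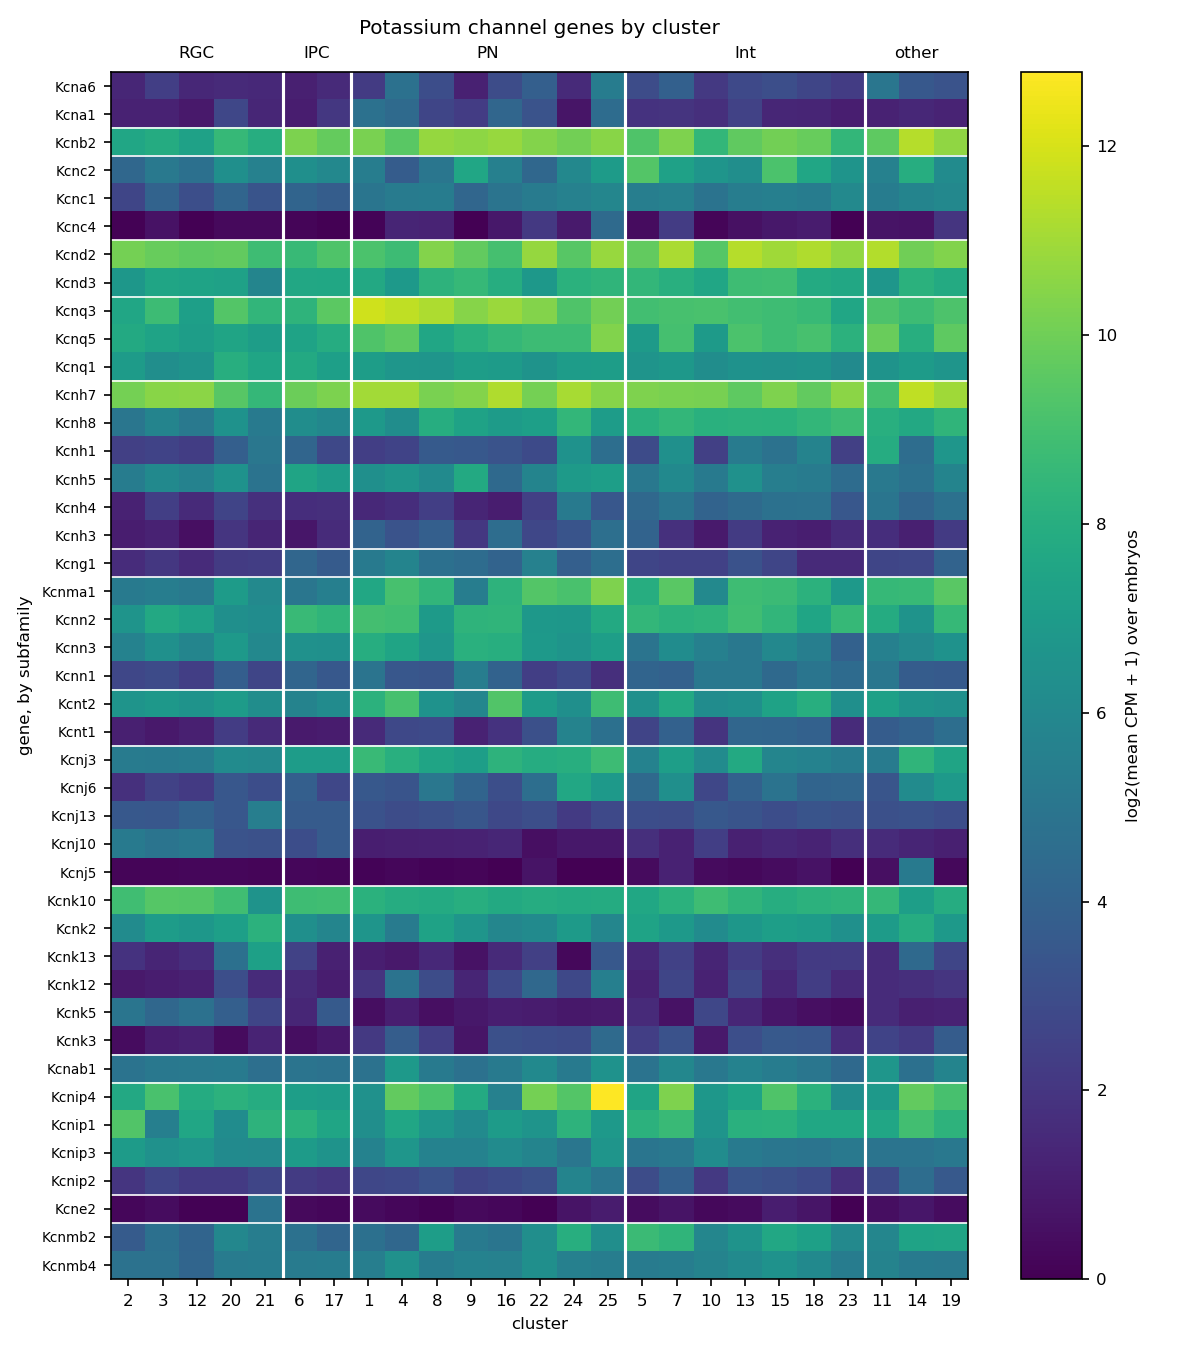
Mean level of 43 potassium channel genes with at least 20 CPM in their highest cluster, as log2(mean CPM + 1) over embryos, with genes in rows by subfamily and the 25 clusters in columns by major cell type. Kcnq3 and Kcnh7 are bright across PN, Kcnd2 in interneurons, Kcnk10 in progenitors, and Kcnip4 reaches 7077 CPM in Cluster 25.

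In summed CPM, the difference between PN and RGC was larger for the Kv7 genes than for any other subfamily. Their sum was 646 ± 98.9 CPM in RGC, 904 ± 93.0 in IPC, 1097 ± 77.3 in Int and 3442 ± 227 in PN. Kcnq3 carried this order with 305 ± 95.9 CPM in RGC and 2623 ± 198 in PN, and reached 3773 ± 345 CPM in Cluster 1 (callosal PN) and 3005 ± 296 in Cluster 4 (rostral subcortical PN). The ranges of Clusters 1 and 4 over embryos overlapped. Kcnq5, which contributes to the M-current too, peaked in Cluster 25 at 1302 ± 343 CPM. Kcnq1, the cardiac delayed rectifier, had another order, with its highest mean in the progenitor Cluster 20 (259 ± 59.5 CPM, n = 9).

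A-type and fast-firing channels leaned to interneurons. The Kv4 sum was 1941 ± 192 CPM in Int, 1091 ± 158 in RGC, 1016 ± 122 in PN and 658 ± 108 in IPC. Kcnd2 reached 2678 ± 456 CPM in Cluster 13 (Int 2) and 2547 ± 188 CPM in Cluster 11 (striatal inhibitory neurons), and the SDs of both clusters overlapped. Kcnd3 was highest in Cluster 15 (Int 3, 462 ± 49.1 CPM), and Kcnd1 stayed under 10 CPM. Kv3 genes, which allow fast repolarization, summed to 394 ± 64.2 CPM in Int and 99.5 ± 11.9 CPM in PN. Kcnc2 led them in Int also per kb of gene span (1.71 CPM per kb), with 660 ± 123 CPM in Cluster 5 (migrating interneurons) and 580 ± 137 CPM in Cluster 15, against 12.2 CPM in Cluster 4. Kcnc1 was 42.8 ± 7.38 CPM in Int and 34.5 ± 2.41 CPM in PN. Kcnc4 reached 20.1 ± 13.4 CPM in Cluster 25 and stayed under 10 CPM in the other clusters.

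Delayed rectifiers and channels of the EAG, ERG and ELK group had different orders of level. Kcnb2 had 217 ± 47.0 CPM in RGC, 1109 ± 180 in IPC and 1257 ± 134 in PN, and was highest in the Cajal-Retzius Cluster 14 (2598 ± 333 CPM). Kcnh7 was also highest in Cluster 14 (3042 ± 608 CPM), next to Cluster 16 (2466 ± 593 CPM, caudal subcortical PN). The ranges of both clusters over embryos overlapped. Kcnh8, an ELK channel, was higher in Int (309 ± 45.5 CPM) than in RGC (43.5 ± 21.5 CPM). Kcnh5 was highest in early PN (Cluster 9, 218 ± 28.9 CPM) and non-mitotic IPC (Cluster 6, 174 ± 27.3 CPM). Kcnh1 was highest in striatal inhibitory neurons, with 241 ± 32.0 CPM in Cluster 11 and 103 ± 28.0 CPM in Cluster 19, the next highest, and this order held in every embryo. The Kv1 genes of mature axons were low, at 36.8 ± 1.91 CPM summed in PN. Kcna1 reached 26.6 ± 5.19 CPM in Cluster 1, while Kcna6 and Kcna4 were highest in Cluster 25 (39.7 ± 8.78 and 19.4 ± 9.59 CPM). Of the silent subunits, which act only together with other Kv subunits, Kcng1 was the one above 20 CPM (53.1 ± 8.34 CPM in Cluster 4), and Kcng3 and Kcnv1 peaked at 11.5 ± 3.90 and 10.2 ± 2.09 CPM in PN clusters.

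Channels opened by calcium or sodium were mainly neuronal. The calcium-activated genes summed to 929 ± 61.6 CPM in PN, 793 ± 70.3 in Int, 521 ± 21.05 in IPC and 255 ± 26.4 in RGC. Kcnma1 was 370 ± 27.4 CPM in PN, 394 ± 68.4 in Int and 45.2 ± 13.6 in RGC, and its 1262 ± 75.7 CPM in Cluster 25 lay above the next cluster in each of the 7 embryos measured there. Kcnn2, a small-conductance SK channel, was already at 383 ± 21.9 CPM in IPC. Kcnn3, another SK gene, was highest in Cluster 9 (276 ± 58.6 CPM) and Kcnn1 likewise (42.5 ± 10.8 CPM). Kcnt2, a sodium-activated channel, reached 647 ± 81.6 CPM in Cluster 16 and 528 ± 76.7 CPM in Cluster 4. Kcnt1 was highest in Cluster 24 (51.4 ± 19 CPM), and Kcnu1, the Slo3 gene of sperm, peaked at 10.0 ± 5.72 CPM.

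A few Kir genes differed widely between progenitor and neuronal clusters. Kcnj10, the Kir gene of astrocytes, was 37.1 ± 12.2 CPM in Cluster 2 (RGC 1) and 33.4 ± 8.53 CPM in Cluster 12 (non-mitotic RGC), 23.8 times its median over clusters. Kcnj3, a G-protein-gated subunit, was 41.2 ± 11.4 CPM in RGC and 275 ± 21.1 CPM in PN, with 408 ± 31.0 CPM in Cluster 1. Kcnj6, its usual partner, was 202 ± 54.8 CPM in Cluster 24 (PN 2). Kcnj5, another partner known mainly from heart, was 35.7 ± 14.1 CPM in Cajal-Retzius cells and 1.30 CPM in the next cluster, 211 times its median over clusters. Kcnj9 stayed under 10 CPM. Kcnj13, known from choroid plexus, was 42.8 ± 29.1 CPM in Cluster 21 and 15.3 ± 9.58 CPM in Cluster 12. Kcne2, an auxiliary subunit also known from choroid plexus, was 27.9 ± 23.2 CPM in Cluster 21 against 1.03 CPM in the next cluster. Cluster 21 also held choroid plexus markers (Ttr 734 CPM, Otx2 244 CPM, Clic6 199 CPM), a list chosen after the data were seen.

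The K2P sum was highest in progenitors, with 686 ± 65.2 CPM in RGC, 542 ± 40.1 in IPC, 436 ± 21.7 in Int and 365 ± 17.3 in PN. Kcnk10 was highest in Cluster 3 (interneuron precursors, 672 ± 45.1 CPM) and Cluster 12 (666 ± 41.7 CPM), which did not differ beyond their spread. Kcnk2, the other TREK gene here, was highest in Cluster 21 (293 ± 75.4 CPM). Kcnk5 resembled Kcnj10, with 30.4 ± 5.35 CPM in Cluster 2 and 25.9 ± 7.51 in Cluster 12. Kcnk13, known from microglia, reached 155 ± 55.9 CPM in Cluster 21, where 5 microglia markers summed to no more than 32.7 CPM in any embryo. Kcnk12, a relative of Kcnk13, was highest in Cluster 25 (45.0 ± 11.1 CPM).

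Among auxiliary subunits, the KChIP proteins bind Kv4 channels. Kcnip4 was 7077 ± 2626 CPM in Cluster 25 and 1273 ± 398 CPM in Cluster 7, the next highest, an order found in each of the 7 embryos measured in Cluster 25. Kcnip1 was 647 ± 177 CPM in Cluster 2 and 45.5 CPM in Cluster 3, both of RGC. Kcnip3 was 105 ± 17.6 CPM in RGC and 38.6 ± 4.20 CPM in Int. Kcnip2, the KChIP of heart, peaked in Cluster 24 (52.7 ± 23.6 CPM). The BK beta subunit Kcnmb2 was 270 ± 76.6 CPM in Int and 57.1 ± 12.4 CPM in PN, Kcnmb4 was 53.0 ± 4.16 and 59.3 ± 5.82 CPM, and Kcnmb1, the subunit of smooth muscle, stayed under 1 CPM in all clusters. Of the Kv beta genes, Kcnab1 reached 120 ± 53.2 CPM in Cluster 4, Kcnab2 14.2 ± 8.43 CPM in Cluster 25 and Kcnab3 3.17 ± 3.54 CPM.

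**Figure D3:**
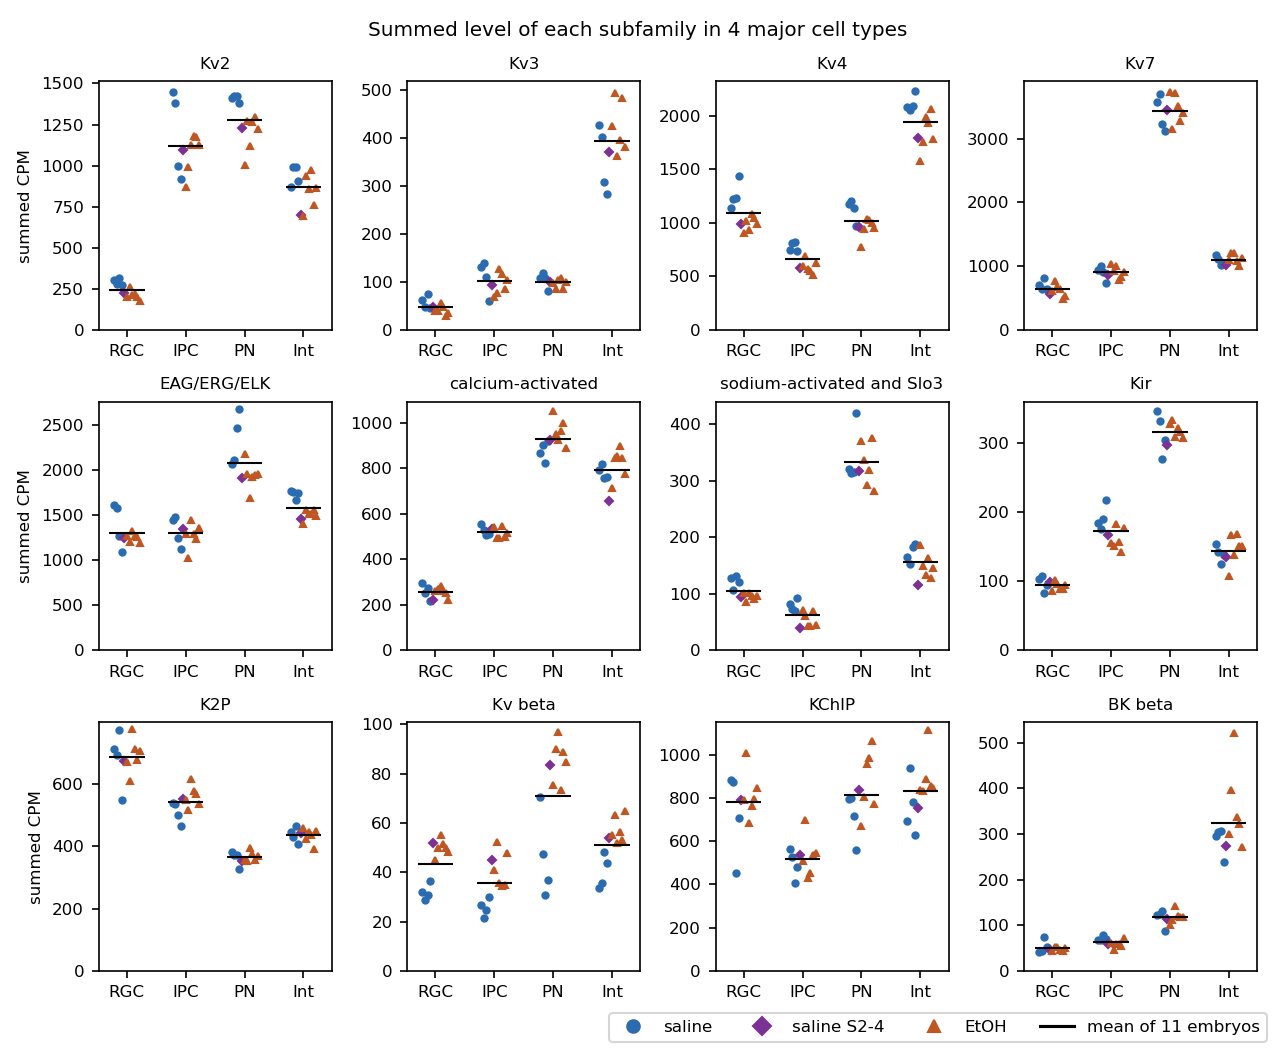
Summed CPM of 12 potassium channel subfamilies in RGC, IPC, PN and Int, with 1 point per embryo (circles saline, diamond saline S2-4, triangles EtOH) and lines at the mean of 11 embryos. Kv7 stands at 3442 CPM in PN against 646 in RGC, Kv4 and Kv3 are highest in Int, and K2P is highest in RGC.

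To ask whether EtOH altered these genes, counts were summed per embryo and cluster and tested with edgeR. A gene was called at an adjusted p below 0.05 and a log2 fold change above 0.32 or below -0.32. In bulk sums such as these, a changed share of nuclei within a cluster and a changed level per nucleus cannot be told apart. In sums over a major cell type, a changed mix of its clusters cannot be told apart from them either. With all 11 embryos, 58 members passed the filter on low counts in at least 1 cluster, which gave 835 tests. Of these, 1 was called higher (0.120%) and 3 lower (0.359%), beside 0.442% and 0.350% of the 217253 tests of all genes. An unadjusted p below 0.05 was found in 157 of the 835. Without S2-4, 41 of 840 member tests were called higher (4.88%) and 51 lower (6.07%), beside 6.17% and 2.61% of all genes. These 92 calls fell on 6 members for higher and 16 for lower levels. For the 4 major cell types, 3 of 207 member tests were called higher and 6 lower with all embryos, where all genes gave 2.85% and 1.47%. Without S2-4 there were 14 higher and 19 lower calls among 207, beside 13% and 5.06% of all genes.

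Leaving out any other single embryo left 0 to 3 calls of members in the clusters. In the major cell types it left 0 to 2 higher and 0 lower calls. Over all genes it left 39 to 424 higher and 50 to 342 lower calls in the clusters, and 0 to 756 and 0 to 473 in the major cell types. All 13 calls made with the 11 embryos kept their direction and were called again without S2-4. Given how S2-4 was picked, this is no independent support for them. With batch as a block 7 of the 13 were called, and the calls of Kcnj3 in IPC, Kcnt2 in RGC and in Clusters 8 and 9, Kcnj13 in PN and Kcnq1 in Int were lost (adjusted p of 0.0509 to 0.0570 with edgeR). With counts summed per dam 3 of 13 were called, Kcnj3, Kcnb2 and Kcnt2 in RGC. With nuclei thinned to 2000 UMIs, Kcnj3 in RGC alone was called of the 12 that could be tested.

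RGC held 4 of the 6 calls toward lower levels in the major cell types. All 6 were lost whenever an embryo other than S2-4 was left out. Of 49 members tested in RGC with all embryos, 4 were called lower (Kcnj3, Kcnd2, Kcnb2 and Kcnt2, 8.16%), beside 1.48% of all genes there and 2.09% of the genes in the longest tertile of gene span, and 0 were called higher, beside 2.31% of all genes (11 of the 49 had an unadjusted p below 0.05). Without S2-4, 8 of 48 were lower (16.7%), beside 5.78% and 8.96%, with Kcnma1, Kcnh8 and Kcnq5 among those added, and 3 were higher (Kcnj13, Kcnab1 and Kcns3, a silent subunit, 6.25%), beside 12.7% of all genes. The median log2 fold change of the members in RGC was -0.08, that of all genes 0.00 and that of the longest tertile -0.08. In IPC the members' median was lower still, at -0.15 over 38 members (27 below 0), beside 0.01 for all genes and -0.06 for the longest tertile. In PN the members' median was 0.02, beside -0.05 for the longest tertile, and in Int 0.01, also beside -0.05. Without S2-4 the members' median was -0.14 in RGC, -0.17 in IPC and 0.0015 in PN, and it turned to -0.02 in Int. The longest tertile then had medians of -0.10, -0.08, -0.06 and -0.07 in the same order. The median of the shortest tertile of all genes was 0.18 in RGC, and 35 of the 49 members tested in RGC were long. The part of gene span in the members' changes was not tested.

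The G-protein-gated subunit Kcnj3 had 52.9, 61.3, 47.1, 56.8 and 35.5 CPM in RGC of saline S1-1, S1-2, S2-1, S2-2 and S2-4. The EtOH embryos ran from 27.8 to 37.4 CPM with a median of 34.6. Only S2-4 overlapped the EtOH embryos. The log2 fold change was -0.70 ± 0.14 (SE, adjusted p = 0.0402 with edgeR), and without S2-4 it was -0.82 ± 0.09 (adjusted p = 3.14e-05). Within batches the log2 difference was -0.64 in batch 1 and -0.51 in batch 2. Kcnj3 fell in IPC too (-0.45 ± 0.10, adjusted p = 0.0479, and -0.53 ± 0.09 without S2-4), from 152 ± 18.7 to 116 ± 15.8 CPM. In IPC the 6 RGC markers summed to 173 to 187 CPM in the 4 other saline embryos, 218 CPM in S2-4 and 206 to 254 CPM in EtOH embryos, and the 2 Cajal-Retzius markers Reln and Ebf3 to 226 to 377, 163 and 129 to 202 CPM. Their part in the call was not tested. In Cluster 21, 5 saline embryos had 42.4 to 195 CPM and 5 EtOH embryos 9.80 to 36.6 CPM, with no overlap. The adjusted p there was 0.0818 with all embryos, and without S2-4 the log2 fold change was -2.56 ± 0.43 (adjusted p = 0.0107). The same 2 Cajal-Retzius markers summed to 245 to 483 CPM in Cluster 21 of saline and 134 to 322 CPM in that of EtOH embryos.

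Kcnd2 was lower in RGC as well. Its saline values were 1007, 1062, 1090, 1326 and 858 CPM (S2-4 last), and the EtOH embryos ran from 779 to 934 CPM with a median of 865. Again S2-4 alone overlapped them. The log2 fold change was -0.40 ± 0.10 (adjusted p = 0.0402 with edgeR) and -0.49 ± 0.07 without S2-4, with -0.30 in batch 1 and -0.32 in batch 2. Within Cluster 2 (RGC 1), where Kcnd2 was called with all embryos (-0.48 ± 0.09, adjusted p = 0.0389, and -0.56 ± 0.08 without S2-4), every saline embryo (1063 to 1715 CPM) lay above every EtOH embryo (909 to 1031 CPM). Kcnd3, another Kv4 gene, was called lower in PN (-0.36 ± 0.10, adjusted p = 0.0402, and -0.43 ± 0.08 without S2-4), from 251 ± 43.3 CPM in 5 saline to 201 ± 16.3 CPM in 6 EtOH embryos, with overlap between the groups.

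Kcnb2 in RGC had 283, 257, 289, 250 and 201 CPM in the saline embryos (S2-4 last) and 153 to 233 CPM in EtOH embryos with a median of 180. One EtOH embryo exceeded S2-4 and none exceeded the other saline embryos. The log2 fold change was -0.55 ± 0.12 (adjusted p = 0.0402 with edgeR), and -0.64 ± 0.10 without S2-4, with -0.43 in batch 1 and -0.46 in batch 2. Kcnt2 in RGC had 123, 103, 127, 117 and 90.5 CPM in saline and 83.8 to 99.5 CPM in EtOH embryos (median 93.0), a log2 fold change of -0.37 ± 0.09 (adjusted p = 0.0429 with edgeR), and of -0.46 ± 0.07 without S2-4. Of the saline embryos only S2-4 lay within the EtOH range. Kcnt2 was also called in 2 PN clusters with all embryos. In Cluster 8 (PN 1) saline embryos had 94.6 to 116 CPM and EtOH embryos 68.5 to 85.9 CPM without overlap (-0.39 ± 0.08, adjusted p = 0.0401, and -0.40 ± 0.09 without S2-4). The Cajal-Retzius markers there summed to 86.9 to 187 CPM in the 4 other saline embryos, 51.2 CPM in S2-4 and 52.6 to 69.5 CPM in EtOH embryos. In Cluster 9 (early PN) the change was -0.84 ± 0.20 (adjusted p = 0.0486, and -0.95 ± 0.17 without S2-4), from 73.7 ± 13.03 to 42.2 ± 14.99 CPM, with overlap. There the Cajal-Retzius markers summed to 235 to 420 CPM in saline and 144 to 216 CPM in EtOH embryos without overlap, and the interneuron markers to 43.2 to 115 and 6.29 to 47.8 CPM. Kcnt2 overlaps 4930590L20Rik on the other strand, whose median log2 fold change over 10 clusters was 0.85. Without S2-4, Kcnt2 was called lower in 9 of 25 clusters.

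**Figure D4:**
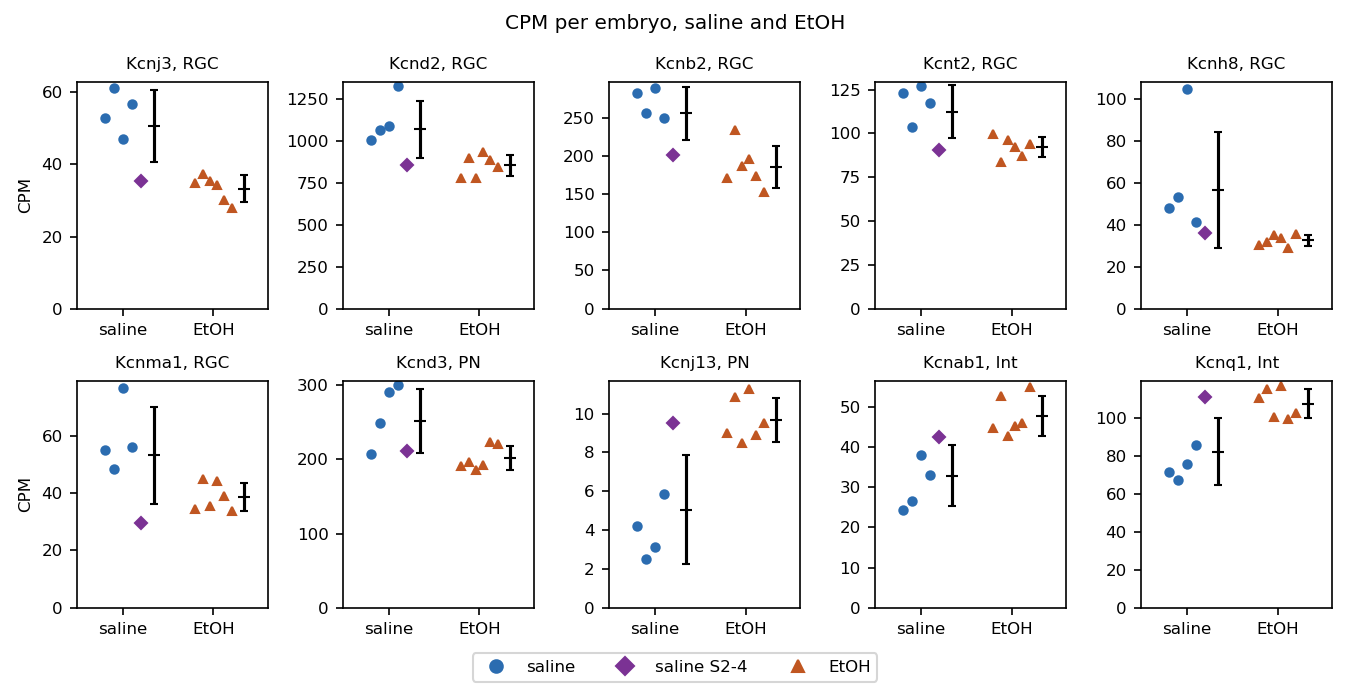
CPM of 10 potassium channel genes in the named major cell type, 1 point per embryo (circles saline, diamond saline S2-4, triangles EtOH), with the mean and SD of each group at its right, S2-4 included. The diamond lies among the triangles for Kcnj13 in PN, at 9.53 CPM beside 2.52 to 5.85 CPM in the other saline embryos.

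Markers of RGC and of other cell types were measured beside these values. In RGC the 6 RGC markers summed to 484 to 529 CPM in the 4 other saline embryos, 589 CPM in S2-4 and 544 to 661 CPM in EtOH embryos. In RGC, 3 PN markers (Neurod2, Neurod6 and Tbr1) summed to 42.2 to 65.6 CPM in saline and 37.6 to 72.5 CPM in EtOH embryos, and 4 interneuron markers (Gad1, Gad2, Dlx1 and Dlx2) to 112 to 254 and 112 to 162 CPM. The 2 Cajal-Retzius markers Reln and Ebf3 summed to 104 to 160 CPM in the 4 other saline embryos, 68.7 CPM in S2-4 and 31.2 to 84.6 CPM in EtOH embryos. The 2 striatal markers Rarb and Ebf1 summed to 84.2 to 228 and 37.9 to 144 CPM. Kcnb2 and Kcnh7 were themselves highest in Cajal-Retzius cells. The 5 microglia markers summed to 7.11 to 14.9 CPM in the 4 other saline embryos, 24.7 CPM in S2-4 and 21.6 to 32.2 CPM in EtOH embryos, and the 3 pericyte markers to 16.3 to 21, 27.9 and 22.7 to 35.5 CPM. In Cluster 2, which held a call of Kcnd2, the Cajal-Retzius markers summed to 63.3 to 141 CPM in saline and 24.7 to 50.1 CPM in EtOH embryos, without overlap. In PN, which held calls of Kcnd3 and Kcnj13, they summed to 162 to 394 and 133 to 234 CPM. The interneuron markers in PN summed to 51.8 to 121 CPM in the 4 other saline embryos, 48.8 CPM in S2-4 and 23.8 to 59.3 CPM in EtOH embryos. Kcnd3 was itself highest in the interneuron Clusters 15 and 13. The part of such RNA in the members' values was not tested.

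Some members passed the test in many clusters when S2-4 was left out. Kcnh8 was below 0 in 25 of 25 clusters with all embryos and called in none. Without S2-4 it was called lower in 11 clusters (log2 fold changes of -0.78 to -0.32) and in all 4 major cell types. In RGC its saline values were 48.1, 53.4, 104, 41.3 and 35.9 CPM and the EtOH embryos had 29.1 to 35.8 CPM. Saline S2-1 was the highest, S2-4 lay just above the EtOH embryos, and the groups did not overlap. Kcnma1 was called lower without S2-4 in 3 clusters, most in Cluster 6 (non-mitotic IPC, -1.18 ± 0.15, adjusted p = 1.37e-05). There its saline values were 46.4, 40.1, 49.3, 50.03 and 29.3 CPM against 18.3 to 33.4 CPM in EtOH embryos, of which 1 exceeded S2-4. Of the 25 clusters, Cluster 6 had the lowest mean of Kcnma1 (31.7 CPM). The Cajal-Retzius markers in Cluster 6 summed to 270 to 489 CPM in the 4 other saline embryos, 201 CPM in S2-4 and 146 to 260 CPM in EtOH embryos. In the same order the RGC markers summed to 135 to 159, 174 and 169 to 211 CPM. The interneuron markers summed to 74.6 to 170, 67.0 and 52.0 to 80.1 CPM. The part of these in the call of Kcnma1 was not tested. With all embryos the log2 fold change of Kcnma1 was -1.05 ± 0.18 (adjusted p = 0.0560). Kcnh7, Kcnb2 and Kcnd3 were each called lower in 3 clusters and Kcnd2 in 4 without S2-4. Single clusters gave calls for a further 8 members lower (Kcna1, Kcnh5, Kcnip1, Kcnj6, Kcnk10, Kcnmb2 and Kcnq5 in 1 each and Kcnc2 in 2). In the major cell types Kcna2 was called lower in PN. These members were named after their values were seen.

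Higher levels fell on fewer members. Kcnj13 was above 0 in 16 of 16 clusters tested and was called with all embryos in Cluster 1 (1.11 ± 0.27, adjusted p = 0.0366, and 1.51 ± 0.23 without S2-4) and in PN (0.89 ± 0.26, adjusted p = 0.04997, and 1.24 ± 0.18 without S2-4). In PN the saline values were 4.21, 2.52, 3.15, 5.85 and 9.53 CPM (S2-4 last), and the EtOH embryos ran from 8.46 to 11.2 CPM with a median of 9.24. The other 4 saline embryos lay below all EtOH embryos, and S2-4 lay among them. Without S2-4 it was called higher in 12 of 14 clusters, with log2 fold changes of 0.84 to 1.95. Kcnj13 lies at chr1:87386363-87394729 on the minus strand within the span of Gigyf2, a gene of the plus strand whose median log2 fold change over 25 clusters was -0.10. The strand used in counting was not stated in the sources used here, so it is uncertain whether reads of the overlapping pair were told apart. The 5 choroid plexus markers summed to 7.93 to 38.8 CPM in PN of saline and 2.20 to 17.9 CPM in PN of EtOH embryos (S2-4 12.2 CPM). In PN the 3 PN markers summed to 407 to 469 CPM in the 4 other saline embryos, 376 CPM in S2-4 and 338 to 377 CPM in EtOH embryos, and the microglia markers to 3.52 to 6.07, 7.25 and 6.30 to 9.76 CPM. In Cluster 1 the striatal markers summed to 115 to 177, 60.3 and 25.3 to 68.6 CPM in the same order, and the Cajal-Retzius markers to 257 to 435, 169 and 92.3 to 212 CPM. The part of these in the calls of Kcnj13 was not tested.

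Kcnq1 was above 0 in 25 of 25 clusters, with an unadjusted p below 0.05 in 15, and was called with all embryos in Int (0.33 ± 0.09, adjusted p = 0.0421, and 0.43 ± 0.07 without S2-4). Kcnab1 was called in Int too. The 5 microglia markers there, chiefly P2ry12, summed to 6.78 to 13.4 CPM in the 4 other saline embryos. They summed to 14.5 CPM in S2-4 and 14.6 to 21.3 CPM in EtOH embryos, and their part was not tested. The Int values of Kcnq1 were 71.5, 67.3, 76.1, 85.9 and 111 CPM in saline embryos (S2-4 last). Those of EtOH embryos were 99.8 to 117 CPM with a median of 107. Only S2-4 overlapped the EtOH embryos. Without S2-4 it was called higher in 15 clusters (0.39 to 0.68). The antisense Kcnq1ot1, the imprinted non-coding RNA that starts within Kcnq1, moved the other way. It was called lower in 10 of 25 clusters with all embryos (-0.83 to -0.34) and in 19 without S2-4 (-0.91 to -0.42). Its level was 438 to 1653 CPM over clusters, and it is uncertain whether reads of the overlapping pair were told apart by strand.

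Kcnab1, the Kv beta subunit that speeds inactivation of Kv1 channels, was called higher in Int with all embryos (0.48 ± 0.11, adjusted p = 0.0355, and 0.55 ± 0.11 without S2-4). Saline embryos had 24.3, 26.6, 38.0, 33.0 and 42.5 CPM (S2-4 last) and EtOH embryos 42.7 to 54.9 CPM with a median of 45.6, without overlap. The log2 difference was 0.91 in batch 1 and 0.31 in batch 2. Kcnab1 overlaps A330015K06Rik and A730090N16Rik on the other strand, whose median log2 fold changes were 0.31 over 10 clusters and 0.01 over 8, and the same doubt about strand applies. Without S2-4 it was called higher in 10 of 22 clusters (0.50 to 1.17), and in RGC, IPC and Int. Kcnc1, a fast Kv3 channel, was called higher without S2-4 in Clusters 5 and 23, both of migrating interneurons, and Kcnn1 and Kcnn3 in 1 cluster each. In the major cell types Kcnh6 was called higher in Int, and Kcnk12 and Kcnmb3 in PN, where Kcnmb3 passed the filter on low counts without S2-4 alone. Which embryos let Kcnmb3 pass was not examined, so its call is no support for a change. Levels were near the floor for Kcnmb3, Kcnh6 and Kcns3, called higher in RGC. Their means in the highest cluster were 1.48, 3.05 and 2.52 CPM.

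**Figure D5:**
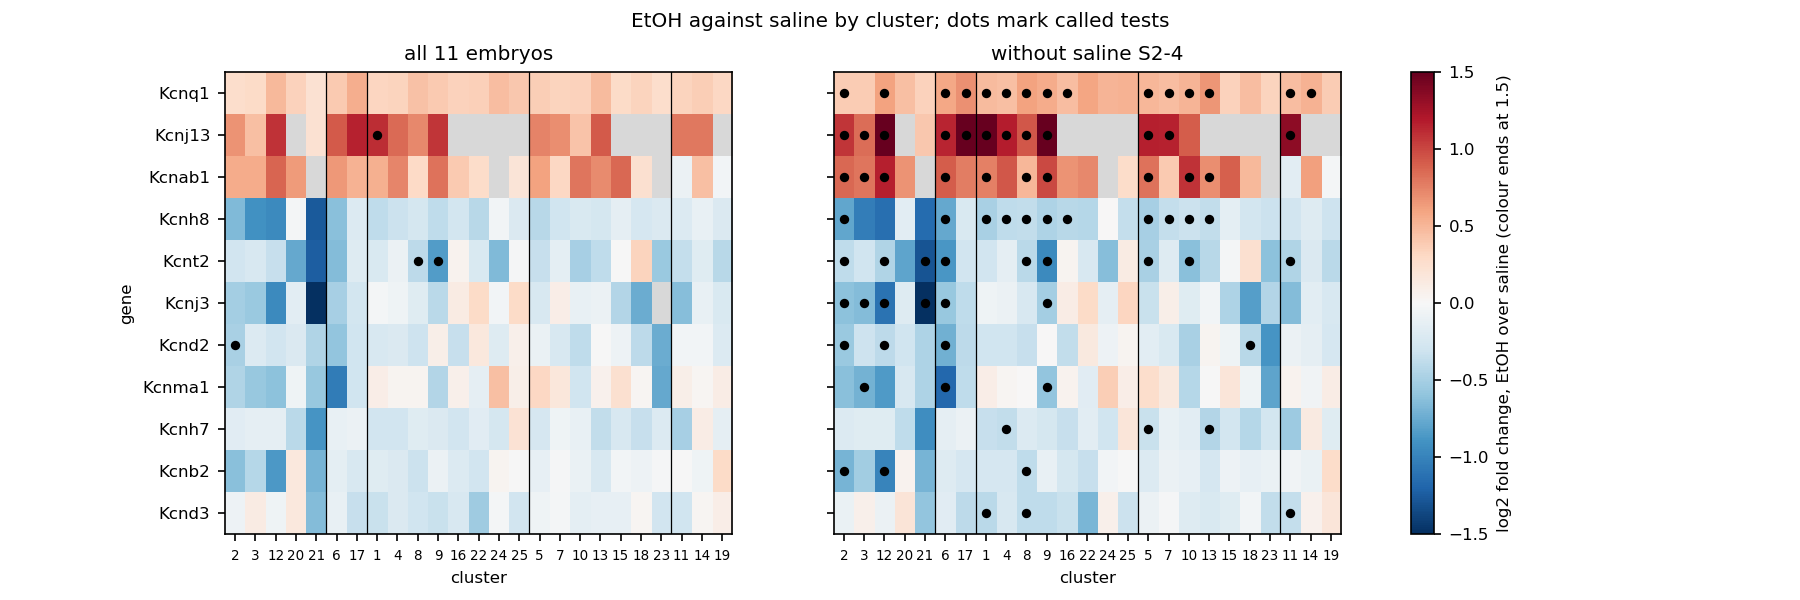
Log2 fold change of EtOH over saline (edgeR) for 11 potassium channel genes in each of 25 clusters, with all 11 embryos on the left and without saline S2-4 on the right. Red is higher and blue lower in EtOH, grey was not tested, and dots mark called tests, of which the panels hold 4 on the left and 79 on the right.

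Summed over a subfamily, the Kv4 genes were 1205 ± 164 CPM in RGC of saline and 996 ± 66.1 CPM in RGC of EtOH embryos. In the same order the Kv2 genes were 280 ± 34.1 and 212 ± 27.9 CPM, and the Kv3 genes 55.8 ± 12.6 and 41.4 ± 9.56 CPM. The sodium-activated and Slo3 genes were 116 ± 15.4 and 95.5 ± 6.19 CPM. The Kv beta genes were 35.9 ± 9.33 and 49.8 ± 3.42 CPM. The silent Kv, calcium-activated, K2P and KChIP means were also higher in EtOH embryos, but by less than the SD of either group. Without S2-4 the calcium-activated mean was 259.1 CPM in saline and 258.5 CPM in EtOH embryos. These sums were not tested. With all 11 embryos the 4 calls in clusters were 1 lower of Kv4, 2 lower of the sodium-activated genes and 1 higher of Kir. Without S2-4, where 6.17% of the tests of all genes were higher and 2.61% lower, the Kv4 subfamily had 7 lower and 0 higher calls in 52 cluster tests (median log2 fold change -0.24), the EAG, ERG and ELK genes 15 lower and 0 higher in 106 (-0.17), and the sodium-activated and Slo3 genes 9 lower and 0 higher in 41 (-0.22), all 9 of Kcnt2. The Kv beta genes had 10 higher and 0 lower calls in 33 tests (0.50), all of Kcnab1. The Kv7 genes had 15 higher calls, all of Kcnq1, and 1 lower, of Kcnq5. Kir calls went both ways, 12 higher, all of Kcnj13, and 7 lower, of Kcnj3 and Kcnj6. K2P genes had 1 call in 70 tests. The median over all 840 tests was -0.05 and that of all genes 0.00.

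Of the 8 members fixed as known targets of ethanol, Kcnj3 was called lower in RGC and IPC with all embryos. In single clusters none of the 8 was called with edgeR, and an unadjusted p below 0.05 was found for Kcnj3 in 9 clusters, Kcnma1 in 6, Kcnj6 in 5, Kcnn2 in 3 and Kcnmb4 in 1. Without S2-4, Kcnj3 was called lower in 6 clusters, Kcnma1 in 3 and Kcnj6 in 1. The log2 fold changes of Kcnn2 ran from -0.38 to 0.47 over 25 clusters with all embryos, and those of Kcnmb4 from -0.60 to 0.37 over 24. Kcnj9 was tested in 2 clusters and Kcnj5 in 1, and Kcnmb1 passed the filter in 0.

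The EtOH effect was then compared between cell types by limma on the difference of log2 CPM within each embryo. For PN minus RGC, 0 of 46 members were called (8 with an unadjusted p below 0.05), beside 0.0147% of 13573 genes. The leading member was Kcnj3, whose EtOH effect was 0.63 ± 0.11 higher in PN than in RGC (adjusted p = 0.0864). Without S2-4, Kcnj3 alone of 45 members was called (0.73 ± 0.08, adjusted p = 0.00105), beside 0.796% of all genes, and Kcnma1 followed at 0.71 ± 0.14 (adjusted p = 0.0507). For PN minus Int, 0 of 58 members were called with all embryos (5 with an unadjusted p below 0.05), beside 0.00711% of 14064 genes, and 0 without S2-4, beside 0.00% of all genes. Kcnip1 led the PN minus Int comparison with all embryos at -0.23 ± 0.06 (adjusted p = 0.669).

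Of 23 partner and regulator genes, all in the tables, 3 were called in clusters with all embryos, 1 of 343 tests higher and 11 lower, beside 0.442% and 0.350% of the tests of all genes. Kcnrg, a regulator of Kv assembly, was higher in 1 cluster (0.77), and Kcnq1ot1 made up 10 of the lower tests. Without S2-4, 9 were called, with 16 of 343 tests higher and 39 lower, beside 6.17% and 2.61% of all genes. The Kv4 partner Dpp10 was lower in 4 clusters (-1.96 to -0.79) and Dpp6 in 1, the Kv1 partners Cntnap2 in 6 (-1.14 to -0.66) and Adam22 in 5 (-0.50 to -0.37) and Ank3 in 2. Kcnrg was higher in 13 clusters (0.60 to 1.77) and Abcc8, a receptor subunit of the ATP-sensitive Kir channel, in 3 (0.59 to 1.36).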

How the data were processed

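Single nuclei of E14 mouse cortex were sequenced with the 10x Genomics system. Per the labels and the study's methods, the authors ran Cell Ranger at default settings against mm10, clustered the nuclei into 25 clusters and named these. They deposited raw UMI counts per gene and nucleus together with cluster assignments, and these counts were used unchanged. The version of Cell Ranger and the strand used in counting were not given in the sources used here, so genes that overlap on opposite strands are uncertain. No doublets were called here. The files of 11 embryos were used. A further saline sample of the labels (S2-3) was not used here, and some genes of the symbol pattern and of the partner list are not reported here by name.

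Counts were summed per embryo over the nuclei of each cluster, or over the clusters of RGC, IPC, PN and Int, leaving out sums of fewer than 10 nuclei, and CPM was computed from all genes. EtOH was tested against saline with edgeR 4.0.16 (quasi-likelihood, TMM, filterByExpr) in R 4.3.3 over all genes, with Benjamini-Hochberg adjustment per cluster or cell type. The difference of the EtOH effect between cell types was tested with limma 3.58.1 on log2 CPM differences within embryos (prior count 2) at an adjusted p below 0.05 alone. The tests were also run on simulated counts drawn without dam or batch effects or a library like S2-4, so that check does not cover these. Alternatives were DESeq2 1.42.0, RLE size factors, no filter, batch as a block, sums per dam, limma voom treating the dam as random, thinning to 2000 UMIs per nucleus, at least 20 nuclei, no fold limit, and leaving out each embryo. Within-batch values are differences of mean log2(CPM + 1).

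Named members were those called in any test, the most abundant of each subfamily, those with at least 20 CPM and 5 times their median in 1 cluster, and 8 targets of ethanol. Further members were named after their values were seen. Members and lists were chosen with earlier results of these data known.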

Additional observations from a re-analysis of the deposited data

Results flagged for a closer look

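In Cluster 1 (callosal PN), Kcnj13 was 9.90 CPM in saline S2-4 and 3.55 to 3.82 CPM in the other 4 saline embryos, so that the gap took up 0.958 of the group's range. The EtOH embryos had 8.45 to 13.7 CPM. This was the one such sample among 34 groups examined, and chance gives about 1 in 20 groups.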

How the results depend on the processing

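With all embryos, 1 higher and 3 lower calls of members were made in the 25 clusters. DESeq2 gave 5 and 20, no filter on low counts 19 and 53, batch as a block 2 and 1, sums per dam 2 and 8, and limma voom with a random dam term 7 and 12. In the 4 major cell types, 3 higher and 6 lower calls became 6 and 14 with DESeq2, and 0 and 2 with nuclei thinned to 2000 UMIs, and the higher calls became 1 with batch as a block and 0 with sums per dam. Leaving out each embryo gave 0 to 41 higher and 0 to 51 lower calls in the clusters, and 0 to 14 and 0 to 19 in the major cell types, the highest of each without S2-4. Over all genes these ranges were 39 to 13401 and 50 to 5658 in the clusters, and 0 to 7133 and 0 to 2782 in the major cell types. For the EtOH effect in PN against RGC, 0 members were called, 1 with thinned nuclei, and 0 to 1 when each embryo was left out. The median log2 fold change of the members was -0.03 in the clusters (-0.0488 to 0.000349, above 0 without S1-1) and -0.04 in the major cell types (-0.0635 to 0.00297, above 0 without S1-2). Of the 13 called values, batch as a block lost 6, sums per dam 10, thinned nuclei 11 of 12, no filter 2, and DESeq2, RLE size factors and voom 1 each, all with the same direction. Leaving out an embryo kept 17 calls, 13 of them without S2-4, and lost 126. The cause was not tested.

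The ratio of PN to RGC of the whole family was 2.05, and 1.93 per kb of gene span. For Kv4 it was 0.94, and 1.07 per kb. For KChIP it was 1.08, 0.819 with thinned nuclei and 0.764 per kb, and its ratio of PN to Int was 0.982, and 1.05 per kb. The sample numbers of the labels name embryos within a litter. No paired analysis was possible because saline and EtOH embryos share no animal or dam and their numbers mark nothing shared. Batch, which they do share, was fitted as a block above.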
